A study of Homo sapiens with 30 samples.

Results

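The genes described here are 32 genes of glucose uptake, glycolysis, lactate handling and the control of pyruvate entry into mitochondria, out of 41495 entries of an RNA-seq time course in which the human embryonic stem cell line H7 was turned into cardiomyocytes. They were chosen by their symbols alone, from textbook roles: glucose transporters SLC2A1, SLC2A3 and SLC2A4, the enzymes of each glycolytic step, the lactate transporters SLC16A1 and SLC16A3, and the pyruvate dehydrogenase kinases PDK1 to PDK4. The series holds 30 libraries in 15 groups of 2. Among these, 11 groups are time points: purified day 31 cardiomyocytes, days 15, 10, 8, 6, 5, 4, 3, 2 and 1 of differentiation (D15 to D1), and undifferentiated stem cells (hESC). The other 4 are sorted populations: PMESO, the ROR2-positive cells of D3, with their counterpart D3 ROR2(-), and CMESO, the D4 cells positive for ROR2 and PDGFRa, with their counterpart D4 ROR2(+)/PDGFRa(-).

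Stem cells were grown in E8 medium. Differentiation was started in RPMI1640 with B27 minus insulin and 12 µM CHIR99021, an inhibitor of the kinase GSK3, for 24 hours, and 5 µM IWP4, an inhibitor of WNT secretion, followed for 2 days in the same insulin-free supplement. Later medium was RPMI1640 with B27 containing insulin. Medium, insulin and drugs therefore change together with time, and their contributions cannot be told apart. Day 31 cardiomyocytes were also purified on Percoll, a density gradient, so time and purification cannot be told apart between D15 and day 31. H7 is a single established line, and separate cultures for the paired libraries are not stated.

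Glycolysis splits glucose into pyruvate and yields a little ATP without oxygen. Lactate dehydrogenase turns pyruvate into lactate, which leaves the cell through monocarboxylate transporters, whereas pyruvate dehydrogenase, when its kinases do not switch it off, sends pyruvate into the mitochondria. Pluripotent stem cells are known for high glycolytic flux, the fetal heart relies largely on glucose and lactate, and the adult heart draws most of its energy from fatty acids. Most steps have several isoenzymes encoded by separate genes with different tissue preferences.

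RNA levels are given in FPKM, mapped fragments scaled by library size and by transcript length, so that levels of different genes can be set side by side. The deposited table gives 1 FPKM value per gene and time point, covering both libraries of a group, so no replicate spread can be given and no difference between time points was tested. A gene is called higher or lower here where log2(FPKM + 1) differs by at least 1, that is 2-fold. Of the 41495 entries, 21715 reached 1 FPKM in at least 1 time point and are the kept genes. They include 30 of the 32 genes, of which PGAM2 alone fell under 1 FPKM at some time points. PFKFB1 stayed between 0.116 FPKM in hESC and 0.439 FPKM at D3, and PDK4 stayed under 1 FPKM throughout. Summed over 8 markers of pluripotent cells, FPKM was 12.2 in cardiomyocytes and 3092 in hESC, and over 10 markers of cardiac muscle it was 13807 in cardiomyocytes and 99.8 in hESC. Of the cardiac markers, TNNI3 went the other way, with 52.7 FPKM in cardiomyocytes and 82.5 FPKM in hESC. In bulk RNA, fewer cells of a type and less RNA per cell cannot be told apart.

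Across the time course the pathway was high at both ends and low in between. The summed level of the 32 genes was 10936 FPKM in hESC, 8070 at D1, 3283 at D4, 3201 at D5, 5981 at D10, 8233 at D15 and 12028 in cardiomyocytes. As a share of all FPKM of protein-coding genes this was 1.78% in hESC, 0.850% at D4, 0.804% at D5, 1.49% at D10, 2.37% at D15 and 2.64% in cardiomyocytes. The lowest value fell at D4 for 11 of the 32 genes and at D5 for 6, and the highest value fell in cardiomyocytes for 16, in hESC for 7 and at D15 for 5. Of all kept genes, 17.1% were highest in cardiomyocytes, or 12.4% with equal protein-coding FPKM, where 15 of the genes of the pathway were. Shares of all kept genes highest in hESC or at D15 are not given here, so the counts for hESC and D15 have no background. All 30 kept genes of the pathway spanned at least 2-fold between their lowest and highest time point, against 84.7% of all kept genes, with a median span of 2.82 on the log2 scale against 1.57 for all kept genes. At the same times the summed level of 8 cell division genes was 323 FPKM at D4, 499 at D5, 303 at D10 and 150 in cardiomyocytes, and its part in the pattern was not tested.

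**Figure D1:**
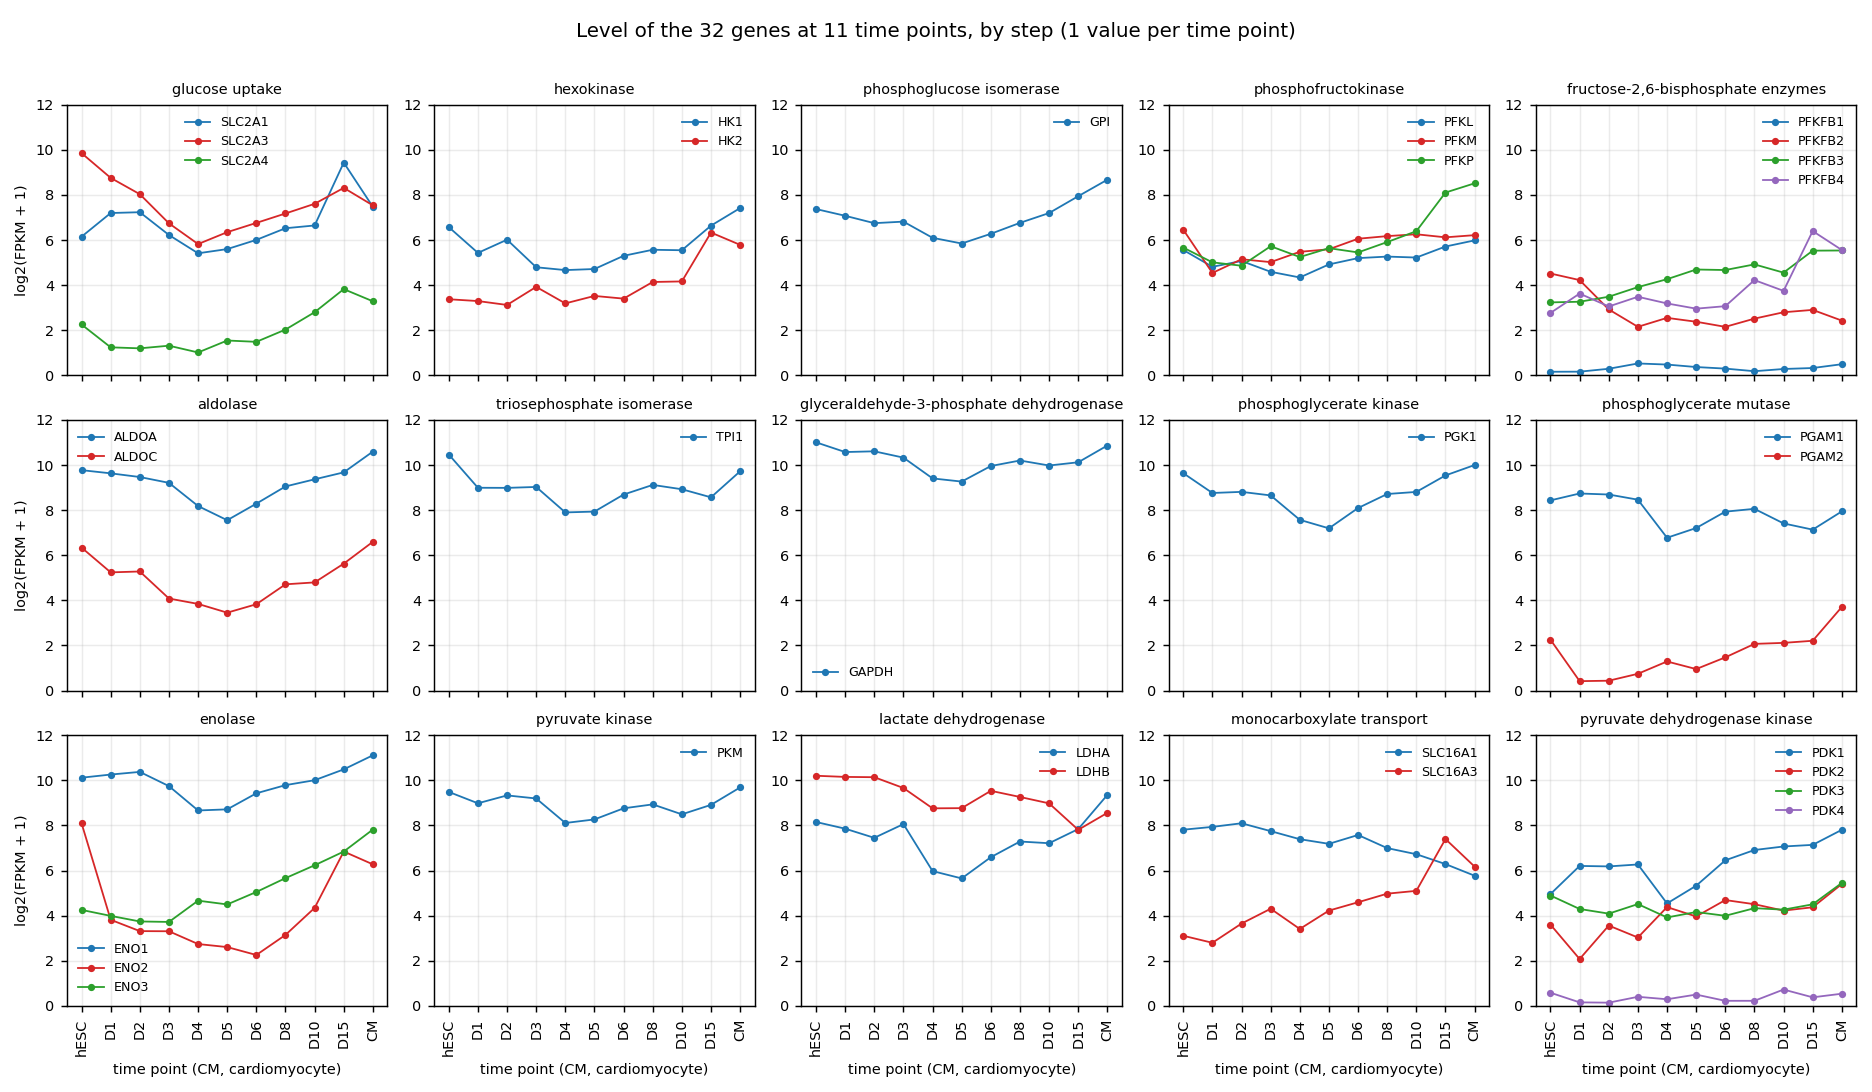
Level of each of the 32 genes as log2(FPKM + 1) at 11 time points, 1 panel per step of the pathway, 1 value per time point and so no error bars. Most abundant enzymes dip at D4 and D5, for example GAPDH at 615 FPKM at D5, while SLC2A1, SLC16A3 and PFKFB4 peak at D15.

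The RNA of the glucose transporters shifted from 1 dominant gene to a pair. SLC2A3 (GLUT3), a high-affinity glucose transporter abundant in pluripotent cells and neurons, had 923 FPKM in hESC, 431 at D1, 261 at D2, 106 at D3, 55.5 at D4, 80.5 at D5, 107 at D6, 144 at D8, 194 at D10, 317 at D15 and 185 in cardiomyocytes. It was highest in hESC by a wide margin, bottomed at D4 and recovered only in part. SLC2A1 (GLUT1), the transporter found in most growing cells, had 69.9 FPKM in hESC, 146 at D1, 149 at D2, 73.7 at D3, 41.5 at D4, 47.4 at D5, 63.3 at D6, 90.9 at D8, 99.1 at D10, 689.7 at D15 and 176 in cardiomyocytes. Its level peaked at D15, where it was the highest glucose transporter, and it was lowest at D4 as well. SLC2A4 (GLUT4), the insulin-responsive transporter of mature muscle and heart, had 8.73 FPKM in cardiomyocytes and 3.77 FPKM in hESC, with its highest value of 13.1 FPKM at D15. Within the summed FPKM of these 3 genes, SLC2A1 took 7.01% in hESC, 42.4% at D4, 33.2% at D10, 67.7% at D15 and 47.7% in cardiomyocytes. SLC2A4 never passed 2.36%, the value in cardiomyocytes. SLC2A3 has named pseudogenes and a close relative, SLC2A14, so reads of such copies could have been split or shared.

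Hexokinases trap glucose in the cell by phosphorylating it. HK1, the widespread form, had 94.1 FPKM in hESC, 42.1 at D1, 63.6 at D2, 26.7 at D3, 24.4 at D4, 25.2 at D5, 38.4 at D6, 46.4 at D8, 45.7 at D10, 98.5 at D15 and 169.8 in cardiomyocytes. It was low from D3 to D5 and highest in cardiomyocytes. HK2, the form known from muscle and from many tumours, stayed between 7.69 FPKM at D2 and 16.9 FPKM at D10 over the first 9 time points, and had 79.5 FPKM at D15 and 54.1 FPKM in cardiomyocytes. HK2 therefore made up 9.04% of the hexokinase FPKM in hESC, 44.7% at D15 and 24.2% in cardiomyocytes, so HK1 remained the more abundant form at every time point. GPI, which converts glucose 6-phosphate to its fructose form, was lowest at D5 with 56.5 FPKM and highest in cardiomyocytes with 408 FPKM, against 165 FPKM in hESC.

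Phosphofructokinase, the committed step of glycolysis, is built from muscle (PFKM), liver (PFKL) and platelet (PFKP) subunits. PFKP had 49.7 FPKM in hESC, 31.2 at D1, 28.0 at D2, 51.9 at D3, 36.9 at D4, 48.8 at D5, 42.7 at D6, 59.1 at D8, 82.9 at D10, 274 at D15 and 365 in cardiomyocytes. Values up to D8 lay between 28.0 and 59.1 FPKM, and D15 and cardiomyocytes stood clearly above the rest. PFKM had 73.3 FPKM in cardiomyocytes and 86.9 FPKM in hESC, with its lowest value of 22.3 FPKM at D1, and PFKL ranged between 19.2 FPKM at D4 and 62.3 FPKM in cardiomyocytes. The muscle subunit held 47.6% of the phosphofructokinase FPKM in hESC, 38.7% at D10, 17.4% at D15 and 14.7% in cardiomyocytes, whereas the platelet subunit held 27.2% in hESC, 42.6% at D10, 69.6% at D15 and 72.9% in cardiomyocytes. The day 31 cardiomyocytes thus carried more RNA of the platelet than of the muscle subunit.

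The bifunctional PFKFB enzymes set the level of a sugar bisphosphate that activates phosphofructokinase, and each isoform leans differently between making and breaking it. PFKFB2, the form known from heart, had 4.38 FPKM in cardiomyocytes and 21.9 FPKM in hESC, its highest value. PFKFB3, the form with the strongest synthetic activity, was 45.4 FPKM in cardiomyocytes and 8.41 FPKM in hESC. PFKFB4 had 5.81 FPKM in hESC, 11.3 at D1, 7.30 at D2, 10.2 at D3, 8.11 at D4, 6.76 at D5, 7.37 at D6, 17.7 at D8, 12.4 at D10, 83.2 at D15 and 46.1 in cardiomyocytes. D15 stood far above every earlier time point, with a lower but still high value in cardiomyocytes. The leading isoform of the family by FPKM was PFKFB2 in hESC with 60.4%, PFKFB3 at D6 with 68.9%, and PFKFB4 at D15 with 61.6%; in cardiomyocytes PFKFB4 had 47.9% and PFKFB3 had 47.2%. Exons of PFKFB2 overlap those of YOD1, which reached 30.8 FPKM, and the strand setting of the counting is not given in the sources used here.

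The abundant enzymes of the lower part of the pathway shared the dip at D4 and D5. ALDOA, the aldolase of muscle and most other tissues, which cuts the 6-carbon sugar, had 875 FPKM in hESC, 793 at D1, 708 at D2, 592 at D3, 289 at D4, 187 at D5, 312 at D6, 529.6 at D8, 659.7 at D10, 817 at D15 and 1549 in cardiomyocytes. PGK1, phosphoglycerate kinase, the first ATP-yielding step, had 797 FPKM in hESC, 433 at D1, 448 at D2, 402 at D3, 189 at D4, 145 at D5, 272 at D6, 419.6 at D8, 447 at D10, 743 at D15 and 1024 in cardiomyocytes. GAPDH, the oxidising step often used as a loading control, had 2059 FPKM in hESC, 1526 at D1, 1561 at D2, 1286 at D3, 678 at D4, 615 at D5, 993 at D6, 1176 at D8, 1009 at D10, 1114 at D15 and 1866 in cardiomyocytes. All 3 were lowest at D5; ALDOA and PGK1 were highest in cardiomyocytes and GAPDH in hESC. GAPDH was thus not constant across this course. TPI1, which interconverts the triose phosphates, was 1415 FPKM in hESC, 238 FPKM at D4 and 845 FPKM in cardiomyocytes, and PKM, pyruvate kinase, was 716 FPKM in hESC, 275 FPKM at D4 and 822 FPKM in cardiomyocytes. The M1 and M2 splice forms of PKM were not told apart in a table of gene values. GENCODE 29 names 62 pseudogenes of GAPDH, 13 of PGAM1, 6 of LDHA and 4 each of TPI1 and ENO1, so these levels may include reads shared with such copies.

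The muscle forms PGAM2 and ENO3 had their highest share of their steps in cardiomyocytes but stayed minor. ALDOC, the aldolase of brain, never passed the 8.39% of aldolase FPKM that it had in hESC, and ALDOA held 91.6% to 97.4%. PGAM2, the muscle phosphoglycerate mutase, reached its highest level of 12.1 FPKM in cardiomyocytes, against 3.78 FPKM in hESC, while PGAM1 had 245 FPKM in cardiomyocytes and 345 FPKM in hESC. PGAM1 thus kept 95.3% to 99.9% of the step. ENO1, the enolase of most tissues, had 1109 FPKM in hESC, 404 FPKM at D4 and 2209.7 FPKM in cardiomyocytes. ENO3, the enolase of muscle, had 18.1 FPKM in hESC, 14.9 at D1, 12.4 at D2, 12.2 at D3, 24.4 at D4, 21.6 at D5, 32.1 at D6, 49.7 at D8, 74.2 at D10, 114 at D15 and 225 in cardiomyocytes. It was lowest from D1 to D3 and climbed at nearly every later time point to its maximum in cardiomyocytes. ENO2, the enolase of neurons, had 273 FPKM in hESC, 13.1 at D1, 8.94 at D2, 8.90 at D3, 5.68 at D4, 5.09 at D5, 3.77 at D6, 7.85 at D8, 19.3 at D10, 114 at D15 and 76.4 in cardiomyocytes. It was high in hESC, at most 19.3 FPKM from D1 to D10, and intermediate at D15 and in cardiomyocytes. Enolase FPKM was 79.2% ENO1 and 19.5% ENO2 in hESC, 98.4% ENO1 at D2, and 88.0% ENO1 and 8.95% ENO3 in cardiomyocytes. ENO3 exons overlap those of PFN1 on the opposite strand, whose level reached 648 FPKM, and PGAM2 exons overlap those of DBNL, which reached 35.4 FPKM, so part of these low levels cannot be assigned without the strand setting.

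Lactate dehydrogenase is a tetramer of A (LDHA) and B (LDHB) subunits. Textbooks give the A subunit as the form of skeletal muscle and hypoxic cells, which favours lactate formation, and the B subunit as the form of adult heart, which favours lactate use. LDHA had 283 FPKM in hESC, 231 at D1, 174 at D2, 266 at D3, 61.9 at D4, 49.2 at D5, 95.4 at D6, 155 at D8, 147 at D10, 228 at D15 and 653 in cardiomyocytes. LDHB had 1177 FPKM in hESC, 1136 at D1, 1126 at D2, 808 at D3, 432 at D4, 434 at D5, 740.4 at D6, 613 at D8, 503 at D10, 223 at D15 and 376 in cardiomyocytes. LDHB exceeded LDHA at every time point up to D10, both were near equal at D15, and LDHA exceeded LDHB in cardiomyocytes. The ratio of LDHA to LDHB on the FPKM scale was 0.241 in hESC, 0.113 at D5, 0.292 at D10, 1.02 at D15 and 1.74 in cardiomyocytes. The A subunit thus accounted for 63.5% of lactate dehydrogenase FPKM in the purified cardiomyocytes, against 19.4% in hESC.

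**Figure D2:**
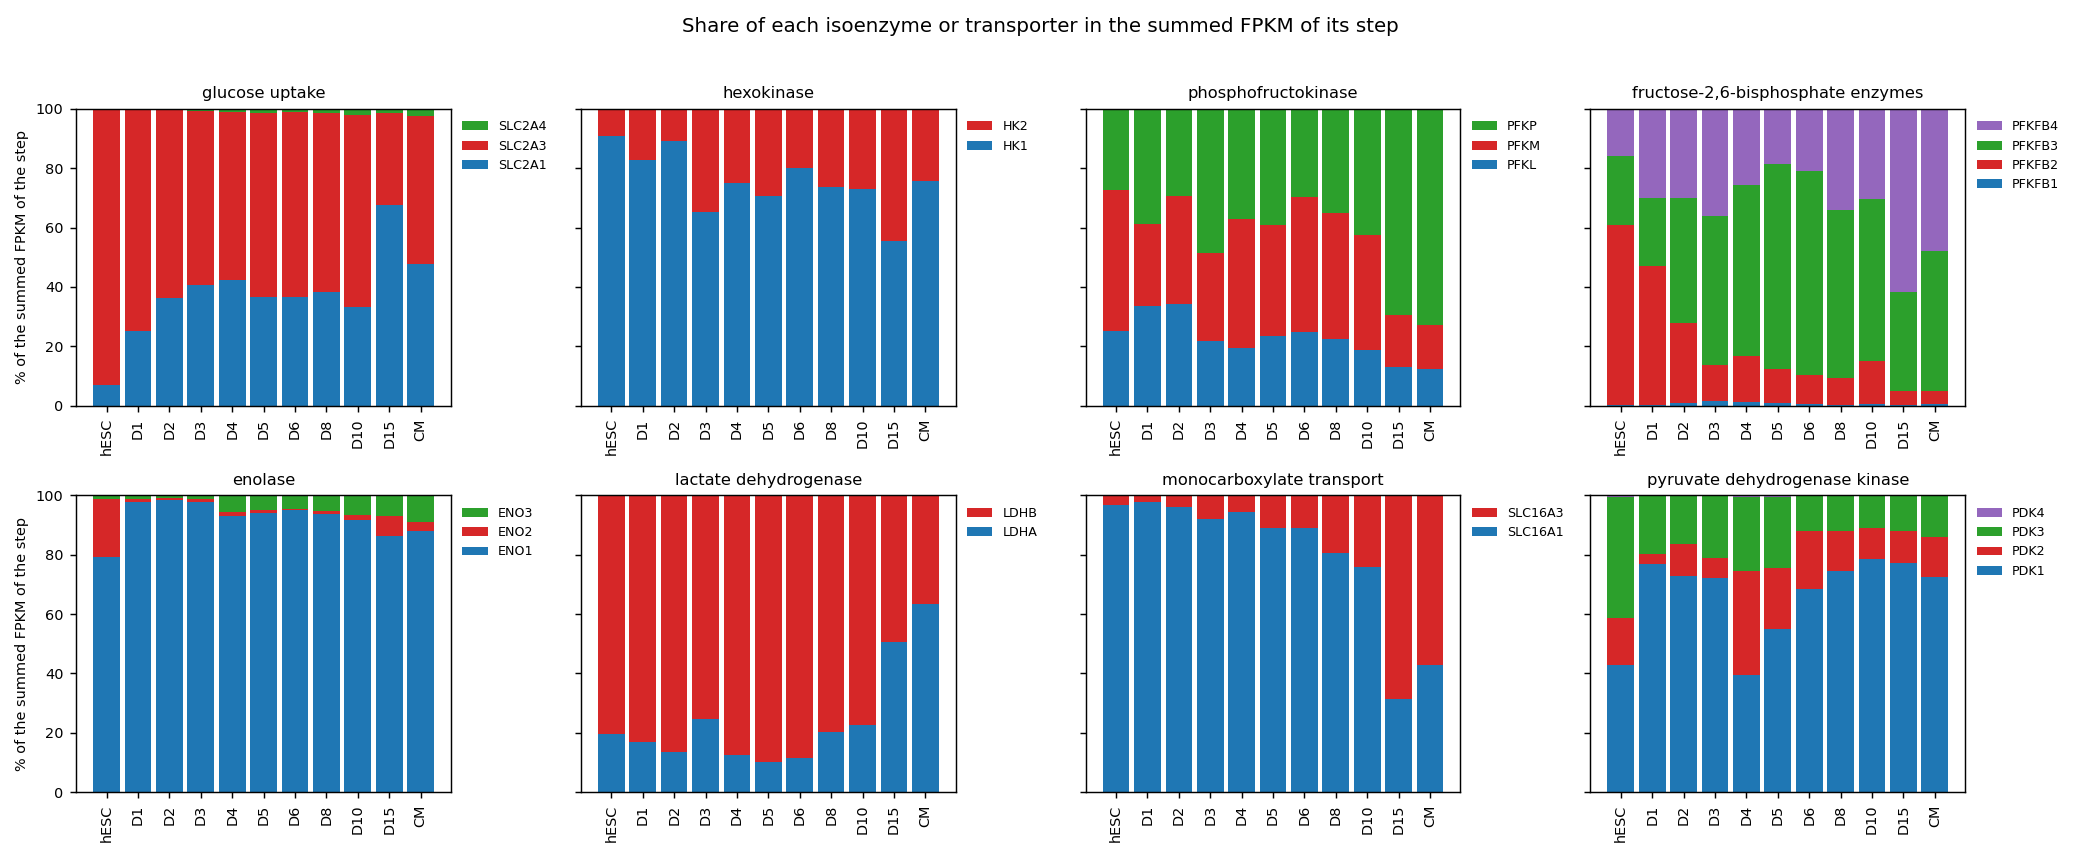
Share of each gene in the summed FPKM of its step, in percent, at 11 time points, for 8 steps that have several isoforms. LDHA takes 63.5% of its step in cardiomyocytes, against 10.2% at D5, PFKP takes 72.9% in cardiomyocytes, and SLC16A3 takes 68.5% at D15.

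LDHA, PGK1, ALDOA and ENO1 are shown, all 4 at least 2-fold lower at D4 than at D3 and higher at D10 than at D5. PDK1 met the same rule, has no match to the motif described here and is not shown. The first 3 genes hold the motif and ENO1 does not, and LDHB is shown as the partner of LDHA. The sequences are the 250 bases before each RefSeq transcription start on GRCh38.p14, written 5′ to 3′ on the gene's strand, and capitals mark ACGTG on either strand, 1 form of the core letters of the hypoxia response element. LDHA lies at chr11:18394313-18394562 on the plus strand, LDHB at chr12:21657843-21658092 on the minus strand, PGK1 at chrX:78103998-78104247 on the plus strand, ALDOA at chr16:30064029-30064278 on the plus strand and ENO1 at chr1:8878687-8878936 on the minus strand.
LDHA: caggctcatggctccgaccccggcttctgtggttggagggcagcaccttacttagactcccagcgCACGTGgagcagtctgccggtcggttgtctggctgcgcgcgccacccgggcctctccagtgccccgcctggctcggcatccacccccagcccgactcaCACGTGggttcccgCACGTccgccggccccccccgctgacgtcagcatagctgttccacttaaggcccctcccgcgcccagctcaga
LDHB: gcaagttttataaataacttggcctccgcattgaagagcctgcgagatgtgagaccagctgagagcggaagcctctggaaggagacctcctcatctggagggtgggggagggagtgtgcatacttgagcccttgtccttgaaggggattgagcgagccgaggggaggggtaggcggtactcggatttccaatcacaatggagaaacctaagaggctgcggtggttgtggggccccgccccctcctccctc
PGK1: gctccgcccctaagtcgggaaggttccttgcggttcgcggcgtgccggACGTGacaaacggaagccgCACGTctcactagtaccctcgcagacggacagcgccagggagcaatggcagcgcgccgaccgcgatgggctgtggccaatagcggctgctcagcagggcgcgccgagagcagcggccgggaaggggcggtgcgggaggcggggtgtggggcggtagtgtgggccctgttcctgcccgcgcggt
ALDOA: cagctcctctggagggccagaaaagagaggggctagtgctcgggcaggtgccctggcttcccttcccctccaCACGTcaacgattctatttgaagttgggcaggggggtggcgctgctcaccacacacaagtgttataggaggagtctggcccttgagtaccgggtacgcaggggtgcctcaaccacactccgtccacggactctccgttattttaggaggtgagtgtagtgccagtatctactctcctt
ENO1: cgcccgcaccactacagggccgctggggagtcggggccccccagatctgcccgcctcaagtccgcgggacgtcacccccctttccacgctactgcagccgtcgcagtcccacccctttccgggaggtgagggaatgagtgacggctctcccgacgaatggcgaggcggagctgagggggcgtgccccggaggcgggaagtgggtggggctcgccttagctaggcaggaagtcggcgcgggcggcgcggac
Counting both strands, these windows hold 5 matches for LDHA, 2 for PGK1, 1 for ALDOA, 0 for ENO1 and 0 for LDHB. Of the 8 genes at least 2-fold lower at D4 than at D3, these 3 hold a match and PDK1, PGAM1, TPI1, ENO1 and PKM hold none. Over the 28 of 32 genes with a RefSeq entry, 9 windows (32.1%) hold ACGTG on either strand, namely those of HK2, GPI, ALDOA, ALDOC, GAPDH, PGK1, ENO2, LDHA and PDK3, against 18.5% of 35116 promoters of the same length. The E-box letters bound by MYC and related factors, CACGTG, which contain the first motif on both strands, are in 3 of the 28 (10.7%), ALDOC, GAPDH and LDHA, against 6.34% of all these promoters. A match describes the letters only, and windows without one say nothing about binding elsewhere. Each of the 28 genes is represented by 1 RefSeq start, and the start used in these cells was not determined. A gene with another start could therefore gain or lose a match, and the counts hold for these windows only. Other forms of the core letters of the hypoxia response element were not searched for.

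The RNA of the 2 lactate transporters shifted from mostly SLC16A1 to mostly SLC16A3. SLC16A1 (MCT1), which carries lactate in both directions and is known from oxidative tissues, had 223 FPKM in hESC, 244 at D1, 273 at D2, 214 at D3, 167 at D4, 144 at D5, 189.8 at D6, 126 at D8, 105 at D10, 77.0 at D15 and 53.6 in cardiomyocytes. SLC16A3 (MCT4), the exporter of highly glycolytic cells, had 7.62 FPKM in hESC, 5.94 at D1, 11.5 at D2, 18.8 at D3, 9.62 at D4, 17.7 at D5, 23.1 at D6, 30.4 at D8, 33.3 at D10, 167 at D15 and 71.2 in cardiomyocytes. SLC16A1 was highest at D2 and lowest in cardiomyocytes, while SLC16A3 was lowest at D1 and highest at D15. SLC16A3 made up 3.30% of their summed FPKM in hESC, 24.1% at D10, 68.5% at D15 and 57.1% in cardiomyocytes. Exons of SLC16A3 overlap those of CSNK1D, which reached 65.6 FPKM.

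Pyruvate dehydrogenase kinases switch off the entry of pyruvate into the mitochondria. PDK1, the isoform known as hypoxia-inducible, had 30.1 FPKM in hESC, 72.7 at D1, 71.6 at D2, 76.1 at D3, 22.3 at D4, 39.1 at D5, 86.6 at D6, 119 at D8, 133 at D10, 139.8 at D15 and 223 in cardiomyocytes. Its level was low in hESC and at D4 and highest in cardiomyocytes. PDK2, the most widespread isoform, was 41.3 FPKM in cardiomyocytes and 11.1 FPKM in hESC, and PDK3 was 42.7 FPKM in cardiomyocytes and 28.7 FPKM in hESC. PDK4, the isoform that adult heart induces during fasting and fatty acid use, had 0.452 FPKM in cardiomyocytes and 0.496 FPKM in hESC, both under the 1 FPKM limit. PDK1 made up 42.7% of the summed FPKM of the 4 genes in hESC, 39.5% at D4, 78.4% at D10 and 72.5% in cardiomyocytes, and PDK2 took 35.1% at D4.

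After the first day in CHIR99021 more genes of the pathway were lower than higher. At D1, 9 of 30 genes were at least 2-fold lower than in hESC and 2 were higher, where 11.1% of all kept genes were lower and 12.0% higher. The median difference of the 30 genes was -0.37 on the log2 scale, against 0.00 for all kept genes. ENO2 had the largest difference, 13.1 FPKM at D1 against 273 FPKM in hESC (log2 -4.28), followed by PFKM at -1.92 and PGAM2 at -1.84. PDK2 (-1.52), TPI1 (-1.47), HK1 (-1.14), SLC2A3 (-1.10), ALDOC (-1.10) and SLC2A4 (-1.01) were the other lower genes. PDK1 (1.25) and SLC2A1 (1.05) were higher. Rescaling samples by the median ratio of genes shifts this comparison by -0.21 and left 1 gene higher, PDK1, and 10 lower (8.60% and 13.7% of all kept genes), and rescaling to equal protein-coding FPKM left 2 higher and 6 lower (12.7% and 8.50%), without SLC2A3, SLC2A4 and ALDOC. The summed level of 10 stress and immediate early genes was 123 FPKM at D1 and 1514 FPKM in hESC, and its part in these differences was not tested.

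Between D1 and D3 few genes passed 2-fold. At D2 against D1 only PDK2 was at least 2-fold higher and only PFKFB2 lower among the 30, with 2.66% of all kept genes higher and 2.34% lower. At D3 against D2 no gene of the 30 was higher and 4 were lower, HK1, SLC2A1, SLC2A3 and ALDOC, with 3.09% of all kept genes higher and 5.04% lower.

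Several abundant enzymes were lower at D4 than at D3. At D4, 8 of 30 genes were at least 2-fold lower than at D3 and 1 was higher, where 6.30% of all kept genes were lower and 6.79% higher, and the median difference was -0.65 for the 30 genes and 0.02 for all kept genes. The lower genes were LDHA (-2.08), PDK1 (-1.73), PGAM1 (-1.69), TPI1 (-1.13), PKM (-1.09), ENO1 (-1.08), PGK1 (-1.08) and ALDOA (-1.03). LDHA had 61.9 FPKM at D4 against 266 FPKM at D3, and GAPDH (-0.92) and LDHB (-0.90) lay just short of the limit. PDK2 was the higher gene (1.35), with 19.8 FPKM at D4 and 7.17 FPKM at D3. Most of these values lie close to the 2-fold limit: after rescaling by the median ratio 4 of the 8 stayed past it, TPI1, PGAM1, LDHA and PDK1, and after rescaling to equal protein-coding FPKM, a shift of 0.36, 3 did, PGAM1, LDHA and PDK1. ENO3 joined PDK2 as higher in both cases, where 7.67% of all kept genes were higher and 5.22% lower by the median ratio, and 12.2% higher and 3.23% lower with equal protein-coding FPKM. Cell division genes summed to 323 FPKM at D4 and 614 FPKM at D3, and their part was not tested.

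Over the dip as a whole, 17 of the 30 genes had their lowest value at D4 or D5, against 6.27% of all kept genes. With samples rescaled to equal protein-coding FPKM the count was 12, against 3.03% of all kept genes, and with the median ratio it was 17, against 6.72%. D5 did not differ from D4 by 2-fold for any of the 30 genes, where 3.68% of all kept genes were higher and 1.26% lower.

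The recovery by D10 was broad. At D10, 13 of 30 genes were at least 2-fold higher than at D5 and none was lower, where 3.53% of all kept genes were higher and 4.04% lower. This pair of time points was chosen after the values were seen. The median difference was 0.85 for the 30 genes and -0.06 for all kept genes. The higher genes covered most steps: SLC2A1, SLC2A3 and SLC2A4 in uptake, GPI, ALDOA and ALDOC, PGK1, PGAM2, all 3 enolases, LDHA and PDK1. ALDOA led with 659.7 FPKM at D10 against 187 FPKM at D5 (log2 1.81), followed by PDK1 (1.74), ENO2 (1.74), ENO3 (1.74) and PGK1 (1.61). The single steps of this recovery were small: PDK1 alone was past 2-fold at D6 against D5 (1.21% of kept genes higher, 6.18% lower), PFKFB4 alone at D8 against D6 (1.33% higher, 0.677% lower) and ENO2 alone at D10 against D8 (1.16% higher, 1.11% lower), all of them upward.

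**Figure D3:**
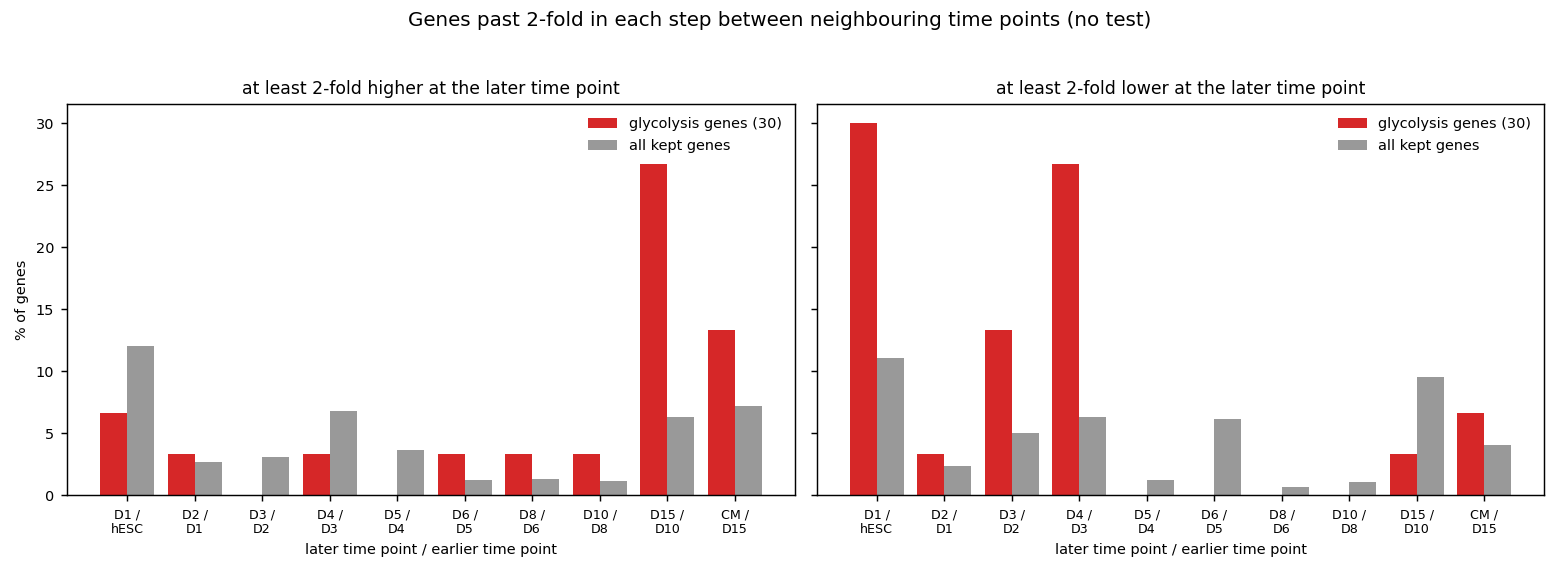
Percent of genes at least 2-fold higher (left) or lower (right) at the later of 2 neighbouring time points, for the 30 kept genes of the pathway (red) and all 21715 kept genes (grey), with no test. The pathway's bars stand out for lower genes at D1 and D4 and for higher genes at D15, where 8 of 30 were higher against 6.32% of all kept genes.

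From D1 to D10 genes of the pathway differed in both directions. At D10 against D1, 8 of 30 genes were at least 2-fold higher and 5 lower, where 12.3% of all kept genes were higher and 13.9% lower, and the median was 0.08 for the 30 genes and 0.00 for all kept genes. SLC16A3 (2.30), ENO3 (2.24), PDK2 (2.15), PFKM (1.71), PGAM2 (1.70), SLC2A4 (1.56), PFKP (1.38) and PFKFB3 (1.29) were higher. PFKFB2 (-1.43), PGAM1 (-1.33), SLC16A1 (-1.21), LDHB (-1.17) and SLC2A3 (-1.15) were lower; PFKFB2 and PGAM1 kept that call under the median ratio, and none of the 5 did with equal protein-coding FPKM, which shifts this comparison by 0.51. The counts were 10 higher and 2 lower under the median ratio, a shift of 0.24 (15.03% of all kept genes higher and 9.93% lower). They were 11 higher and 0 lower with equal protein-coding FPKM (19.8% of all kept genes higher and 6.93% lower).

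D15 stood out for the RNA of genes of uptake, the first steps and lactate export. At D15, 8 of 30 genes were at least 2-fold higher than at D10 and 1 was lower, where 6.32% of all kept genes were higher and 9.51% lower, and the median was 0.55 for the 30 genes and -0.04 for all kept genes. SLC2A1 led, with 689.7 FPKM at D15 against 99.1 FPKM at D10 (log2 2.79). PFKFB4 (2.65), ENO2 (2.50), SLC16A3 (2.30), HK2 (2.17), PFKP (1.71), HK1 (1.09) and SLC2A4 (1.02) were the other higher genes. LDHB was the lower one, with 223 FPKM at D15 and 503 FPKM at D10 (log2 -1.17), and it lost that call under both rescalings, while all 8 higher genes kept theirs. The counts were 13 higher and 0 lower under the median ratio, a shift of 0.35 (11.8% and 4.45% of all kept genes), and 10 higher and 0 lower with equal protein-coding FPKM (9.96% and 6.28%). At D15 the smallest steps between FPKM values put the sequencing depth at about 0.536 of that of D1, the lowest of the 11 time points. Stroma and smooth muscle markers summed to 3906 FPKM at D15 and 1385 FPKM at D10, cardiac muscle markers to 8188 FPKM at D15 and 4166 FPKM at D10, and cell division genes to 142 FPKM at D15 and 303 FPKM at D10. Their part in the D15 values was not tested.

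Purified day 31 cardiomyocytes differed from D15 in the opposite direction for the leading transporters. In cardiomyocytes, 4 of 30 genes were at least 2-fold higher than at D15 and 2 were lower, where 7.23% of all kept genes were higher and 4.07% lower, and the median was 0.65 for the 30 genes and 0.12 for all kept genes. SLC2A1 had 176 FPKM in cardiomyocytes against 689.7 FPKM at D15 (log2 -1.96), and SLC16A3 had 71.2 FPKM in cardiomyocytes against 167 FPKM at D15 (log2 -1.22). LDHA (1.51), PGAM2 (12.1 FPKM in cardiomyocytes against 3.62 FPKM at D15), TPI1 (1.16) and PDK2 (1.03) were higher. Both rescalings turn this balance round, to 2 genes higher, LDHA and PGAM2, and 4 lower, SLC2A1, SLC2A3, PFKFB4 and SLC16A3. They shift the comparison by -0.34 (median ratio) and -0.39 (equal protein-coding FPKM), with 3.00% and 2.65% of all kept genes higher and 7.93% and 8.68% lower, and PFKL, PFKM and PFKFB3 changed sign. Stroma and smooth muscle markers summed to 1909 FPKM in cardiomyocytes and 3906 FPKM at D15. ACTA2 and TAGLN of this list went the other way, at 509 and 296 FPKM in cardiomyocytes against 262 and 268 FPKM at D15. The part of these markers was not tested.

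Cardiomyocytes differed from hESC in both directions. ENO1 had 2209.7 FPKM in cardiomyocytes against 1109 FPKM in hESC. The summed FPKM of glucose transporters was 369 in cardiomyocytes against 997 in hESC, that of lactate dehydrogenase 1028 in cardiomyocytes against 1461 in hESC, and that of the lactate transporters 125 in cardiomyocytes against 231 in hESC. In cardiomyocytes, 13 of 30 genes were at least 2-fold higher than in hESC and 5 were lower, where 18.7% of all kept genes were higher and 16.9% lower, and the median was 0.83 for the 30 genes and 0.03 for all kept genes. ENO3 (3.56), SLC16A3 (3.07), PFKP (2.85), PDK1 (2.85) and PFKFB4 (2.79) had the largest positive differences, and HK2, PFKFB3, PDK2, PGAM2, SLC2A1, GPI, LDHA and SLC2A4 followed between 2.41 and 1.03. SLC2A3 (-2.32), PFKFB2 (-2.09), SLC16A1 (-2.04), ENO2 (-1.82) and LDHB (-1.64) were lower. ENO1 lay just under the limit (0.99). Among the steps with a single gene here, GAPDH (-0.14), PKM (0.20), PGK1 (0.36) and TPI1 (-0.74) stayed within 2-fold, whereas GPI was higher (1.30). All 13 higher and 5 lower calls held under both rescalings. ENO1 passed the limit under both, at 1.04 by the median ratio and 1.42 with equal protein-coding FPKM. By the median ratio the counts were 14 higher and 5 lower (19.4% and 16.3% of all kept genes). With equal protein-coding FPKM, a shift of 0.43, the counts were 16 higher and 5 lower (25.4% and 11.0% of all kept genes), and GAPDH and PFKM changed sign.

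**Figure D4:**
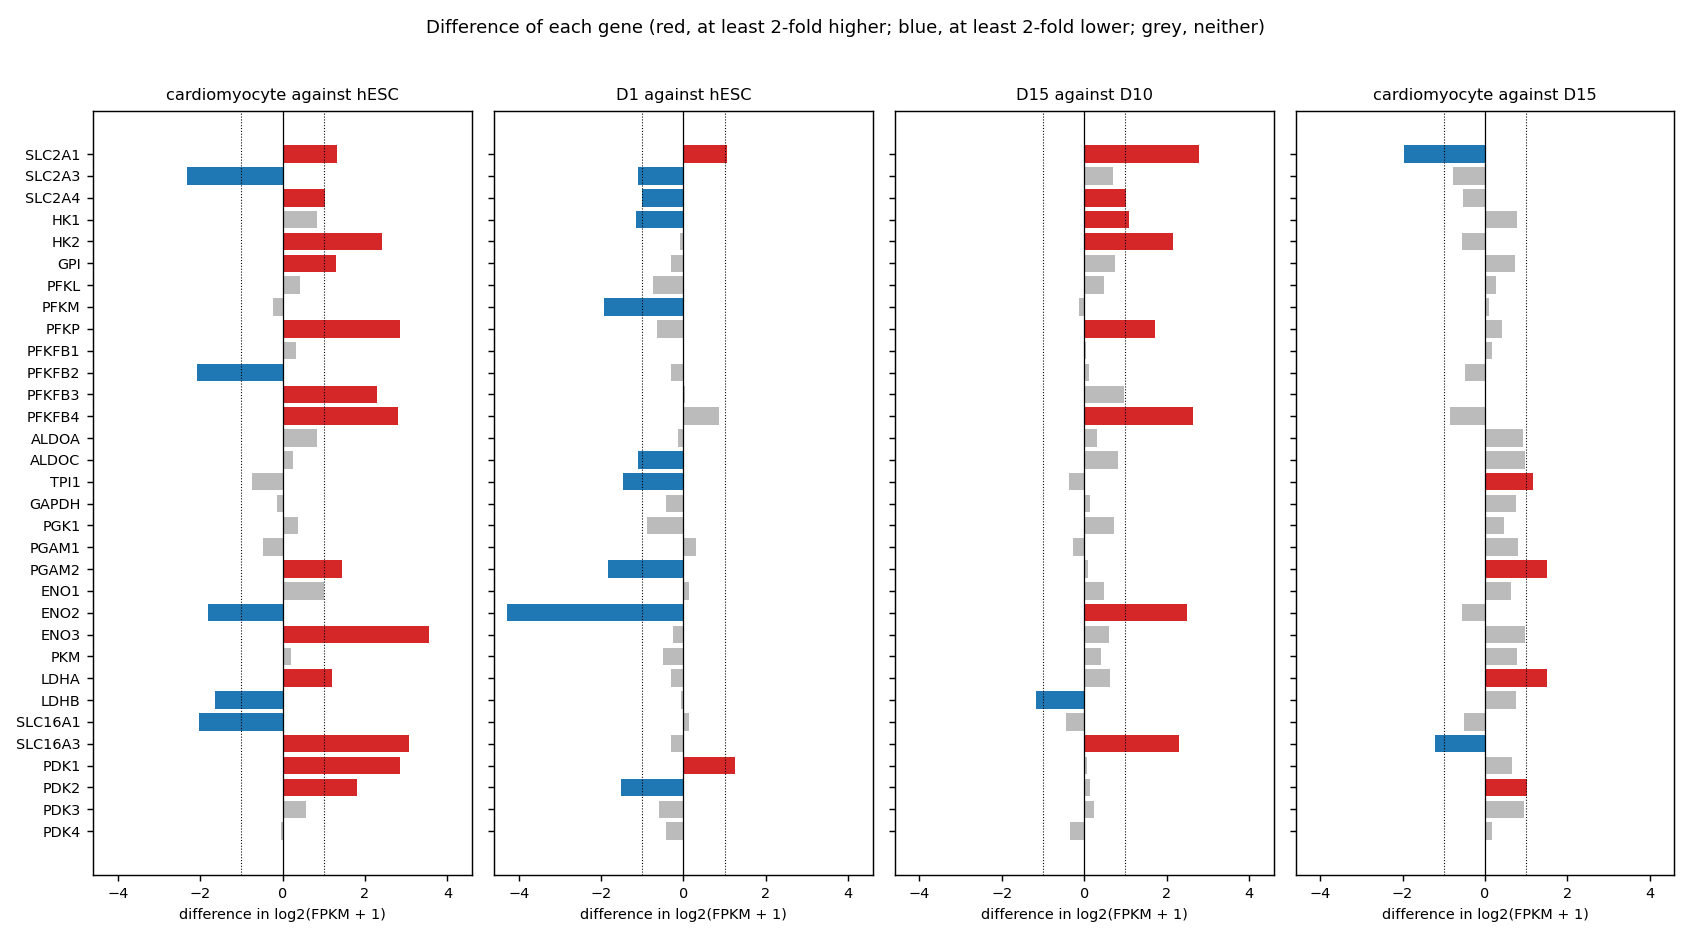
Difference of each of the 32 genes in log2(FPKM + 1) in 4 comparisons, the later time point minus the earlier, with dotted lines at 2-fold and no error bars because each group has 1 value. In cardiomyocytes against hESC the bars run from SLC2A3 at -2.32 to ENO3 at 3.56, and SLC2A1 points up at D15 and down in cardiomyocytes against D15.

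The sorted mesoderm populations compare cells of 1 day. The authors' deposited tables list genes with a q-value, a p-value adjusted over all genes tested, under 0.05, and a gene that is not listed cannot be read as equal in both populations. ROR2 had 72.0 FPKM in PMESO against 5.90 FPKM in D3 ROR2(-) cells in the authors' deposited table, and PDGFRA had 304 FPKM in CMESO against 8.28 FPKM in D4 ROR2(+)/PDGFRa(-) cells, so both sorts are visible in the RNA of their marker.

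At D3, 10 of the 32 genes are in the authors' deposited table, 5 higher and 5 lower in PMESO, where 15.4% of 16632 genes were called higher and 12.4% lower. PFKP had 98.0 FPKM in PMESO against 53.8 FPKM in D3 ROR2(-) cells in the authors' deposited table (log2 0.87, q = 0.000375; hg19 chr10:3109712-3179904). SLC16A3 (log2 0.85), PFKL (0.76), PFKFB3 (0.59) and SLC16A1 (0.43) were also higher in PMESO in the authors' deposited table. SLC2A1 had 118 FPKM in PMESO against 169.9 FPKM in D3 ROR2(-) cells there, by the authors' deposited table (log2 -0.53, q = 0.0141). HK1 (-0.48), PGAM1 (-0.34), LDHB (-0.30) and PDK4 (-1.08) were lower as well in the authors' deposited table, PDK4 at 1.02 FPKM in PMESO against 2.15 FPKM in D3 ROR2(-) cells. Except for PDK4, every listed difference at D3 was under 2-fold.

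At D4, 12 of the 32 genes are in the authors' deposited table, 6 higher and 6 lower in CMESO, where 17.2% of 13303 genes were called higher and 19.0% lower. PFKP had 97.2 FPKM in CMESO against 27.3 FPKM in D4 ROR2(+)/PDGFRa(-) cells in the authors' deposited table (log2 1.83, q = 0.000269). PDK1 had 33.1 FPKM in CMESO against 9.45 FPKM in D4 ROR2(+)/PDGFRa(-) cells in the authors' deposited table (log2 1.81; hg19 chr2:173292082-173489823). PFKFB3 (log2 1.30), SLC16A1 (0.80), SLC2A3 (0.47) and HK1 (0.38) were higher too in the authors' deposited table. HK2 had 6.89 FPKM in CMESO against 14.0 FPKM in D4 ROR2(+)/PDGFRa(-) cells in the authors' deposited table (log2 -1.02, q = 0.000269). ENO2 (-1.63), PDK3 (-0.44), GPI (-0.36), ENO1 (-0.28) and LDHB (-0.28) were the other lower genes in the authors' deposited table, ENO2 with q = 0.0466 and a listed locus that spans more than the gene. The listed loci of PDK1 at D4 and of LDHB in both sorts also reach well past the RefSeq start of the gene. What these values include beyond the gene cannot be told apart.

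Across both sorts, PFKP, PFKFB3 and SLC16A1 were higher in the marker-positive cells at D3 and at D4 and LDHB was lower in both, by the authors' deposited tables. HK1 had the opposite sign in them, lower in PMESO and higher in CMESO. The shares of listed genes, 5 and 5 of 32 at D3 and 6 and 6 of 32 at D4, are near those of all genes tested. The median size of the listed differences was 0.56 on the log2 scale for the genes of the pathway at D3 and 0.63 at D4, against 0.94 and 0.90 for all listed genes in the authors' deposited tables.

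**Figure D5:**
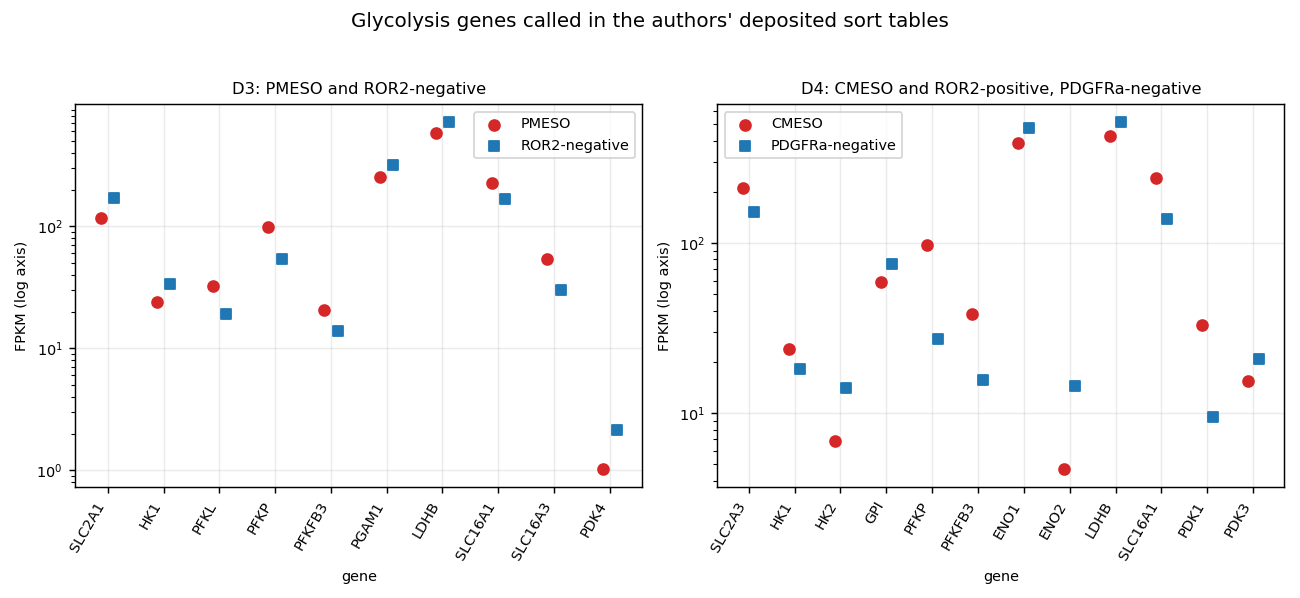
FPKM (log axis) of the genes of the pathway that the authors' deposited tables call at a q-value under 0.05: 10 genes at D3 in PMESO (red) and D3 ROR2(-) cells (blue), and 12 genes at D4 in CMESO (red) and D4 ROR2(+)/PDGFRa(-) cells (blue). PFKP lies highest above its counterpart at D4, with 97.2 FPKM in CMESO and 27.3 FPKM in D4 ROR2(+)/PDGFRa(-) cells.

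Genes outside glycolysis that oxygen-sensing factors are known to control were counted in the same comparisons. Of 18 hypoxia-inducible genes, 11 were at least 2-fold higher and none lower at D15 than at D10 (median log2 1.39), where 6.32% of all kept genes were higher and 9.51% lower. In cardiomyocytes against D15, 6 were lower and none higher (median -0.49), where 4.07% of all kept genes were lower and 7.23% higher. At D1 against hESC, 9 were lower and none higher (median -0.88), where 11.1% of all kept genes were lower and 12.0% higher. In cardiomyocytes against hESC, 10 were higher and 1 lower (median 1.14), where 18.7% of all kept genes were higher and 16.9% lower. Each of these 4 medians kept its sign under both rescalings. At D10 against D1, 10 were higher and none lower (median 1.10), where 12.3% of all kept genes were higher and 13.9% lower. The glycolytic genes had a median of 0.08 in that comparison. The list had a median above 0 where the glycolytic genes had one of -0.65: at D4 against D3, 2 were higher and 3 lower (median 0.16), where 6.79% of all kept genes were higher and 6.30% lower. At D10 against D5, 4 were higher and 1 lower (median 0.38), where 3.53% of all kept genes were higher and 4.04% lower. EGLN3, a prolyl hydroxylase of the oxygen sensor, had 59.0 FPKM in cardiomyocytes against 6.91 FPKM in hESC, and DDIT4, an inhibitor of mTOR signalling, had 18.6 FPKM in cardiomyocytes against 131 FPKM in hESC. VEGFA, the vascular growth factor, had 409 FPKM at D15 against 142 FPKM at D10. The collagen hydroxylase P4HA2 and the collagen cross-linking enzyme LOX are also made by stroma. They had 101 and 71.1 FPKM at D15 against 14.7 and 1.62 FPKM at D10. The summed level of the stroma and smooth muscle markers was highest at D15, but ACTA2 was highest in cardiomyocytes and TAGLN at D2. HIF1A, the oxygen-regulated factor itself, whose protein rather than RNA is controlled by oxygen, had 48.1 FPKM at D15 against 85.8 FPKM at D10.

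The pentose phosphate and serine branches draw on glycolytic intermediates. Of their 10 kept genes, none was higher and 5 were lower in cardiomyocytes than in hESC (median log2 -1.12), where 18.7% of all kept genes were higher and 16.9% lower, and 2 of the 10 lay above 0. At D15, 4 were lower and none higher than at D10 (median -0.97), or 2 lower under either rescaling, where 9.51% of all kept genes were lower and 6.32% higher. TKT, transketolase, was 31.6 FPKM in cardiomyocytes against 568 FPKM in hESC, and PSPH, the last step of serine synthesis, was 59.6 FPKM at D1 against 14.1 FPKM in hESC. At D1 against hESC, 2 genes of this list were higher and 1 lower, or 4 and 1 with equal protein-coding FPKM, where 12.0% of all kept genes were higher and 11.1% lower as deposited. Of 10 genes for the entry of pyruvate into the mitochondria, 2 were higher and 2 lower in cardiomyocytes than in hESC (median 0.52), near the 18.7% and 16.9% of all kept genes, or 5 and 2 with equal protein-coding FPKM, where 25.4% of all kept genes were higher and 11.0% lower. MPC1, a subunit of the mitochondrial pyruvate carrier, had 31.4 FPKM in cardiomyocytes against 4.58 FPKM in hESC. PDP2 and PDP1, the phosphatases that reverse the pyruvate dehydrogenase kinases, had 6.51 and 7.30 FPKM in cardiomyocytes against 56.9 and 43.6 FPKM in hESC. Over the same comparison PDK1 and PDK2 were higher and both phosphatases lower.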

How the data were processed

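RNA of 30 libraries was depleted of ribosomal RNA (500 ng input, 10 PCR cycles) and sequenced as pairs of 100 nt reads, per the labels' protocols. Reads were handled with Bowtie2 2.1.0.0, TopHat2 2.0.8b and Cufflinks on hg19, per the submitters' processing notes. Annotation, strand setting and depth: not given in the sources used here. The smallest steps between FPKM values put the relative depth between 0.536 at D15 and 1.15 at D6, with D1 as 1. The authors deposited a time-course table of FPKM, 1 value per gene and time point. Per the file headers, the 2 sort tables hold the authors' FPKM in each population, the log2 and the linear ratio of the populations, a test score, a p-value and a q-value; the number of genes tested was taken from the q-value and p-value at the largest p. Sort loci were made 1-based: reading starts as 0-based gave GENCODE 29 gene lengths for 2171 of 4538 loci, and reading them as 1-based gave 63.

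The planned tests per library could not be made on 1 value per group. Differences are of log2(FPKM + 1), a scale that understates low genes, with a 2-fold limit over the 21715 kept genes. Python 3.11.15, pandas 2.3.3 and numpy 2.4.6 were used. The code for the calls was run on D1 values changed by set folds with no added noise. That run checks the arithmetic of the limit only and gives no measure of how reliable a call is. Members and lists were chosen with earlier results of these data known. Named genes are all 32 members and, from each further list, the genes with the highest and lowest difference in cardiomyocytes or D1 against hESC. HIF1A, VEGFA, P4HA2, LOX and TXNIP in cardiomyocytes were chosen after their values were seen. So were TNNI3, ACTA2 and TAGLN, which are named as exceptions within their marker lists. One gene that this rule names is not reported here. Promoter letters come from RefSeq (GRCh38.p14) and exon overlaps and pseudogenes from GENCODE 29. Alternatives were a pseudocount of 0.1, a 1.5-fold limit, rescaling by median ratio or to equal protein-coding FPKM, other time points and a stricter q-value.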

Additional observations from a re-analysis of the deposited data

How the results depend on the processing

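No paired analysis was possible because the 2 libraries of a group are not given apart, and for the same reason no replicate could be left out. A pseudocount of 0.1 changed no gene's call in 60 comparisons of cardiomyocytes or D1 with hESC. The larger changes of the counts on rescaling by the median ratio were as follows. At D1 against hESC 1 gene was higher, at D10 against D1 2 were lower, and at D15 against D10 13 were higher and 0 lower. In cardiomyocytes against D15 2 were higher and 4 lower, and at D4 against D3 2 were higher and 4 lower. With equal protein-coding FPKM, 0 genes were lower at D10 against D1 and 0 at D15 against D10, 2 were higher and 4 lower in cardiomyocytes against D15, and 2 were higher and 3 lower at D4 against D3. At a 1.5-fold limit, 15 genes were higher at D15 against D10 (16.2% of all kept genes), 16 higher and 4 lower in cardiomyocytes against D15 (23.5% and 12.0%), 2 higher and 16 lower at D4 against D3 (16.7% and 16.5%), and 21 higher at D10 against D5 (9.27%). The last 2 comparisons were added after the data were seen. With D10 in place of cardiomyocytes against hESC, 4 genes were higher and 10 lower (13.4% and 13.7% of all kept genes). Among the genes past 2-fold in cardiomyocytes, GPI (-0.18), PGAM2 (-0.14) and LDHA (-0.94) changed sign. Several genes within 2-fold in cardiomyocytes changed sign too, among them ALDOC (-1.54), HK1 (-1.03), PKM (-0.99) and PGK1 (-0.83). Shares at D10 were 22.6% for LDHA, 33.2% for SLC2A1, 24.1% for SLC16A3, 42.6% for PFKP, 27.0% for HK2, 6.63% for ENO3 and 30.2% for PFKFB4. ENO2 was higher (2.46) in cardiomyocytes against D1, though lower against hESC. In the authors' deposited tables, a q-value under 0.01 left 2 lower genes at D3 and 1 at D4. A 1.5-fold limit left 1 lower gene at D3 and 2 at D4. Every higher gene at D3 had a q-value under 0.01, as did PFKP, PFKFB3, SLC16A1 and PDK1 at D4. All of these except SLC16A1 at D3 also passed the 1.5-fold limit. Shares of all genes at these limits are not given here. The cause of these changes was not tested.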

Other observations

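The lists below compare cardiomyocytes with hESC, where 18.7% of all kept genes were at least 2-fold higher and 16.9% lower, or 25.4% and 11.0% with equal protein-coding FPKM. Of 16 kept genes of glycogen metabolism, which stores and releases glucose, 6 were higher and 1, UGP2, was lower in cardiomyocytes (median log2 0.32), and 7 lay below 0. UGP2, which makes the UDP-glucose used for glycogen and other sugars, had 91.6 FPKM in cardiomyocytes against 772 FPKM in hESC and was already 189 FPKM at D1. Among 13 other isoenzymes of the same steps, 1 was higher and 3 lower in cardiomyocytes than in hESC. LDHD, a mitochondrial dehydrogenase of D-lactate, had 1.94 FPKM at D1 against 35.4 FPKM in hESC, and the lactate transporter SLC16A7 had 12.0 FPKM in cardiomyocytes against 2.99 FPKM in hESC.

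Of 16 regulators of glycolytic genes, 2 were higher and 5 lower in cardiomyocytes than in hESC, or 4 and 3 with equal protein-coding FPKM. MYC had 2.66 FPKM in cardiomyocytes against 25.3 FPKM in hESC, and TFEB, a regulator of lysosomes and metabolism, had 9.65 FPKM in cardiomyocytes against 1.62 FPKM in hESC. TXNIP, a glucose-responsive brake on glucose uptake, had 25.4 FPKM at D1 against 219 FPKM in hESC, and 75.6 FPKM in cardiomyocytes against 10.9 FPKM at D15. Of 10 genes of the glycerol and malate-aspartate shuttles, which carry reducing equivalents into mitochondria, 2 were higher and none lower in cardiomyocytes than in hESC, with SLC25A12 at 21.1 FPKM in cardiomyocytes against 4.61 FPKM in hESC. Of 9 partners of the transporters, 1 was higher and 2 lower, or 2 and 1 with equal protein-coding FPKM: TBC1D4, a brake on GLUT4 traffic, had 25.2 FPKM in cardiomyocytes against 5.83 FPKM in hESC, and EMB, a chaperone of lactate transporters, had 3.01 FPKM in cardiomyocytes against 21.7 FPKM in hESC. Of 4 kept genes of gluconeogenesis, 1 was lower, PCK2, with 5.63 FPKM in cardiomyocytes against 26.3 FPKM in hESC.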
